A study of Mus musculus with 12 samples.

Results

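The natriuretic peptide system was examined in the left ventricle of mice that had lost Nkx2-5 in trabecular myocardium before birth. The 7 genes followed were the ligands Nppa, Nppb and Nppc, the receptors Npr1, Npr2 and Npr3, and the convertase Corin, chosen by name from the 34844 gene names on the array. Each gene had 1 probe of 60 bases. Left ventricular RNA of 12 animals, all 6 months old, was hybridised to one-colour Agilent arrays, 1 mouse per array, in 3 groups of 4. The TrbE10 group, labelled Nkx2-5Δtrab, came from pregnancies given tamoxifen at E10.5 and E11.5. The TrbE14 group, labelled Nkx2-5Δcomp, was exposed at E13.5 and E14.5 (days of embryonic development). Control mice are labelled as not injected, while the methods describe littermates that carried the floxed Nkx2-5 alleles on both chromosomes and no Cre, so the groups may differ in tamoxifen and in Cre as well as in Nkx2-5. The methods also give the controls as Cx40+/+. The Cre lies in Gja5, the gene that encodes Cx40, so the groups may differ in Gja5 alleles too. In the mutants Cre was expressed as Cx40-creERT2 from the Gja5 locus, which is active in trabecular and conduction myocytes, in atrial myocytes and in arterial endothelium. Deletion is therefore limited to cells that had expressed Cx40 at the time of injection and their descendants. Per the methods, the full left ventricular wall and apex were assayed, with the interventricular septum left out.

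Natriuretic peptides are hormones that the heart secretes under wall stress. Nppa encodes ANP, which is made in the atria throughout life and in fetal trabecular myocardium, and Nppb encodes BNP. Both act through the guanylyl cyclase receptor Npr1, Nppc encodes CNP and acts through the guanylyl cyclase receptor Npr2, and Npr3 is a receptor without a cyclase domain that removes all 3 peptides from the circulation. Corin is the membrane protease of cardiomyocytes that cuts pro-ANP to its active form. Nppa is a textbook target of NKX2-5, GATA and T-box factors and is widely used, with Nppb, as a marker of the stressed ventricle.

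Nppa and Nppb lie next to each other on chromosome 4, and the 250 bases before the annotated start of each gene are shown because Nppa is a known target of the deleted factor and because these 2 neighbouring ligands are compared within each heart. Both come from RefSeq on GRCm38.p6, on the plus strand, at chr4:148000472-148000721 for Nppa and chr4:147985650-147985899 for Nppb. Capitals mark matches on either strand to AAGTG, the core letters of an NKX2-5 element, to the T-box letters GGTGTGA, and to either of 2 elements of the GATA family, spelled TGATAA or, in its other form, AGATAA.
Nppa: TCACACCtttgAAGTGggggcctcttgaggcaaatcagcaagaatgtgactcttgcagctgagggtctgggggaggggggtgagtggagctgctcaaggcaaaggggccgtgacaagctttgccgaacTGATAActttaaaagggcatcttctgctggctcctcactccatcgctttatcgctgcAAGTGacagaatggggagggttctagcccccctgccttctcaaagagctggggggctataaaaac
Nppb: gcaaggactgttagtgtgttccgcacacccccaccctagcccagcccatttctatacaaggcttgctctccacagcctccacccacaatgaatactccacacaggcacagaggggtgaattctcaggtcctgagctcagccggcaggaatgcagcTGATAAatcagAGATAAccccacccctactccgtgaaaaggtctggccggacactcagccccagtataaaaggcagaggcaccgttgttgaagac
The Nppa window held 2 matches to the NKX2-5 core letters, the first starting at position -239 and the second at -65 from the annotated start. It also held 1 T-box match, starting at -250, and 1 GATA match, starting at -122. The Nppb window held 2 GATA matches, starting at -95 and -84, and none of the other letters searched. Over the same window in 32841 RefSeq promoters, AAGTG was present in 40.7%, GGTGTGA in 3.33%, TGATAA in 7.94% and AGATAA in 9.99%, so a match to the short NKX2-5 core is common.

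Signals are log2 of the scanner's processed signal after quantile normalization, and a change is a difference of group means on that scale. The scanner software marks a spot that clearly exceeds its local background, and the 24593 probes so marked on 3 or more arrays of 1 group or another entered the tests. Nppa, Nppb, Npr2, Npr3 and Corin passed on all 12 arrays, and Nppc and Npr1 did not pass. A call is an adjusted p under 0.05 in limma over all tested probes. Between 22885 and 26145 probes per array were well above background, and no spot of a member was saturated. All control and TrbE14 arrays shared 1 slide and all TrbE10 arrays were on the other, so slide and TrbE10 cannot be told apart. The targeted gene checked the labels of mutant against control hearts. It could not check the injection days, as it differed by -0.06 between TrbE10 and TrbE14 (limma adjusted p = 0.978). Nkx2-5 was 12 ± 0.16 in control hearts, 11.34 ± 0.22 in TrbE10 and 11.41 ± 0.23 in TrbE14 (SD, n = 4), and no mutant heart reached the lowest control. Its change was -0.65 in TrbE10 (SE 0.14, limma adjusted p = 0.0471) and -0.59 in TrbE14 (SE 0.14, limma adjusted p = 0.107). Gja5, whose locus drives the Cre, changed by -0.65 in TrbE10 (limma adjusted p = 0.411) and by -0.47 in TrbE14 (limma adjusted p = 0.574), with overlapping groups. Another Gja5 probe that passed the filter averaged 5.12 in control hearts, 4.52 in TrbE10 and 4.58 in TrbE14, also with overlap.

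**Figure D1:**
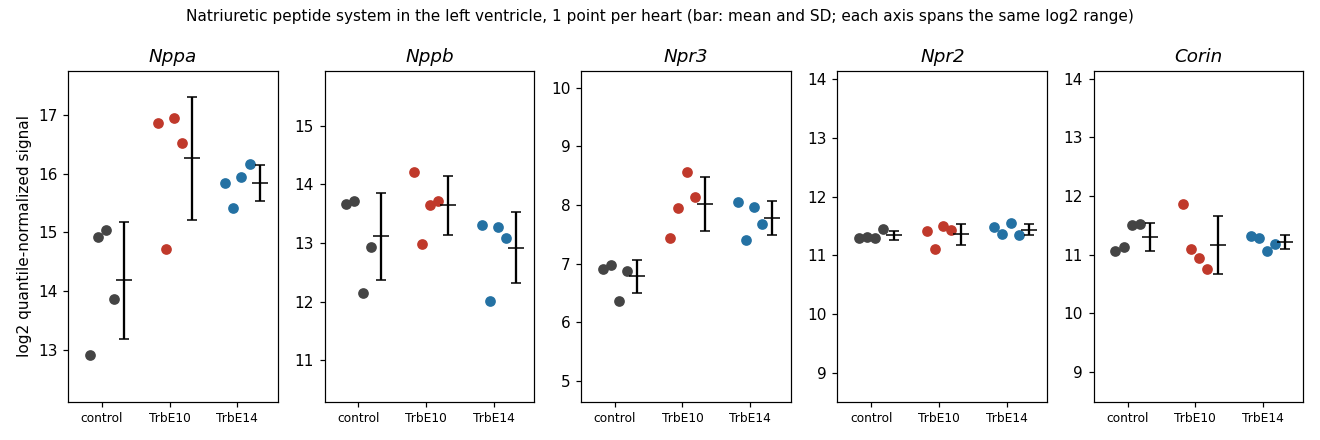
Log2 quantile-normalized signal (vertical axes, all spanning the same log2 range) of the 5 measured members in the 12 hearts, with each group's mean and SD beside its 4 points. Nppa and Npr3 sit higher in the mutant groups, with 1 TrbE10 heart inside the control range for Nppa and none for Npr3, while Nppb, Npr2 and Corin overlap in all 3 groups.

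Among the ligands, Nppa had the largest difference of the 5 measured members in both mutants but did not pass the test. The Nppa probe (A_52_P580582) read 12.92, 14.93, 15.04 and 13.86 in control hearts 1 to 4. In TrbE10 hearts it read 16.87, 14.72, 16.95 and 16.53. In TrbE14 hearts it read 15.84, 15.42, 15.95 and 16.16. Every TrbE14 heart was above every control heart, and 3 of 4 TrbE10 hearts were, the exception being replicate 2, which fell below control hearts 2 and 3. The group means stood 2.08 apart for TrbE10 (SE 0.54, 4.22-fold, 95% interval 1.84 to 9.67, limma adjusted p = 0.0856) and 1.65 apart for TrbE14 (SE 0.54, 3.15-fold, 95% interval 1.37 to 7.21, limma adjusted p = 0.241). With each heart left out in turn, the TrbE10 difference was lowest without control replicate 1, at 1.66 (limma adjusted p = 0.169), and highest without TrbE10 replicate 2, at 2.59 (limma adjusted p = 0.0154). The adjusted p was highest, 0.22, without TrbE10 replicate 3. The TrbE14 difference lay between 1.23 and 1.94 over these fits and did not pass in any. With the sex of the animal, read from 2 Y-linked probes, as a covariate the TrbE10 difference was 2.33 (limma adjusted p = 0.0291). The TrbE14 difference was then 2.16 and did not pass (limma adjusted p = 0.0894). Sex was not balanced, with Y-linked signal in 1 control, 2 TrbE10 and 3 TrbE14 hearts, so this adjustment leans on 1 control heart. In bulk ventricle, a change in the share of cells that express a gene and a change in its RNA per cell cannot be told apart.

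Repeat spots of Nppa varied far less than hearts did. Nppa was printed in 10 spots on each array, and their SD within an array was between 0.043 and 0.127. The SD between hearts of a group was 0.85, larger than that of 97.4% of all tested probes, against a median of 0.22. It was 1.00 among control hearts, 1.04 in TrbE10 and 0.31 in TrbE14.

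Nppb, the other cardiac ligand, did not separate the groups. It read 13.67, 13.71, 12.14 and 12.93 in control hearts, 14.21, 12.99, 13.65 and 13.71 in TrbE10 hearts and 13.30, 12.02, 13.28 and 13.09 in TrbE14 hearts. All 3 groups overlapped. The difference from control was 0.52 in TrbE10 (SE 0.40, 1.44-fold, 95% interval 0.782 to 2.64, limma adjusted p = 0.555) and -0.19 in TrbE14 (SE 0.40, 0.875-fold, 95% interval 0.476 to 1.61, limma adjusted p = 0.849). The upper bound for TrbE14 lies below the Nppa difference in those hearts, though the intervals of the 2 genes overlap. The SD of Nppb within groups, 0.62, was larger than that of 93.4% of probes. The third ligand, Nppc, was not well above background on any of the 12 arrays.

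Whether the 2 ligands moved unequally was tested within hearts, as Nppa minus Nppb on the log2 scale. The probes' own scales enter this value, so only its shift between groups is read. It was -0.75, 1.21, 2.90 and 0.93 in control hearts, 2.66, 1.74, 3.30 and 2.82 in TrbE10 hearts and 2.54, 3.39, 2.67 and 3.08 in TrbE14 hearts. Control replicate 3 lay among the mutant hearts and the other control hearts lay below all of them. The shift was 1.56 for TrbE10 (exact permutation p = 0.114, two-sided, n = 4 against 4) and 1.85 for TrbE14 (exact permutation p = 0.0857), both 0.114 after Benjamini-Hochberg adjustment. The smallest p that 4 against 4 hearts allow is 0.0286. Without control replicate 1 the shifts were 0.95 (exact permutation p = 0.229) and 1.24 (exact permutation p = 0.114). Without control replicate 3 they were 2.16 and 2.46, each with an exact permutation p of 0.0286, which is then the smallest possible for 4 against 3 hearts.

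**Figure D2:**
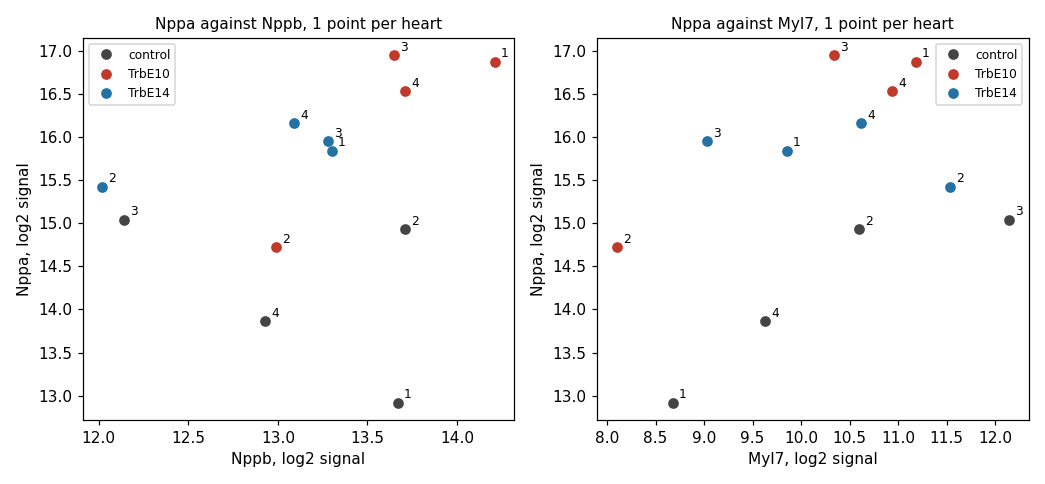
Nppa log2 signal (vertical axes) against that of Nppb (left) and of the atrial light chain Myl7 (right), 1 numbered point per heart, coloured by group. Control heart 1 combines the lowest Nppa (12.92) with one of the higher Nppb readings (13.67), and TrbE10 heart 2 has the lowest Myl7 (8.10) and the lowest Nppa among mutants (14.72).

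Among the receptors, Npr3 was the member that passed the test. Its probe (A_51_P247184, chr15:11769937-11769996 on mm9, minus strand) read 6.91, 6.97, 6.37 and 6.87 in control hearts. In TrbE10 hearts it read 7.43, 7.94, 8.56 and 8.13, and in TrbE14 hearts 8.05, 7.40, 7.97 and 7.68. All 8 mutant hearts were above all 4 control hearts. Npr3, the clearance receptor, rose by 1.24 in TrbE10 (SE 0.23, 2.36-fold, 95% interval 1.65 to 3.37, limma adjusted p = 0.0251). In TrbE14 the difference was 1.00 (SE 0.23, 1.99-fold, 95% interval 1.40 to 2.85, limma adjusted p = 0.0976) and did not pass. The TrbE10 call was lost when control replicate 1, 3 or 4 or TrbE10 replicate 3 or 4 was left out, with a difference between 1.06 and 1.28 in those fits and an adjusted p of at most 0.0705. It was also lost without the background filter (adjusted p = 0.0728 in limma) and with only the groups compared in the fit (adjusted p = 0.0591). With replicate number as a block in the fit, the call was lost as well (limma adjusted p = 0.0734).

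Npr2, the CNP receptor, varied least among the members. It lay between 11.30 and 11.45 in control hearts, at 11.41, 11.10 and 11.44 in TrbE10 hearts 1, 2 and 4, with heart 3 the highest of them, and between 11.35 and 11.55 in TrbE14 hearts, with overlapping groups. Its difference was 0.02 in TrbE10 (95% interval 0.875 to 1.18-fold, limma adjusted p = 0.938) and 0.10 in TrbE14 (95% interval 0.923 to 1.24-fold, limma adjusted p = 0.668). Its SD within groups was 0.12.

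Npr1, the cyclase receptor for ANP and BNP, was not measured well enough to compare. Its probe was well above background on 1 of 12 arrays, TrbE14 replicate 4, where it read 5.01, and lay between 3.06 and 4.62 on the other 11. The ends of the probe span 494 bases on chr3:90259171-90259664 (mm9, minus strand), so it crosses a splice junction. It is printed because the reading rests on these 60 bases alone.
Npr1 probe: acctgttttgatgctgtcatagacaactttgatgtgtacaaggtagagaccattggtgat
A reading below background at this probe says that Npr1 RNA was not detected by it, not that the ventricle lacks the receptor.

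Corin, the ANP convertase, did not separate the groups. It read 11.07, 11.13 and 11.52 in control hearts 1, 2 and 4, with heart 3 just below heart 4, 11.87, 11.10, 10.94 and 10.76 in TrbE10 hearts and 11.32, 11.29, 11.06 and 11.19 in TrbE14 hearts. TrbE10 hearts held both the highest and the lowest reading of all 12. The difference was -0.14 in TrbE10 (95% interval 0.657 to 1.25-fold, limma adjusted p = 0.792) and -0.09 in TrbE14 (95% interval 0.678 to 1.30-fold, limma adjusted p = 0.863).

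Counted together, 1 of the 5 measured members was called in TrbE10, where 1.67% of all tested probes were called, and 0 in TrbE14, where 0.606% were. At an unadjusted p under 0.05 the TrbE14 comparison held 2 members, Nppa and Npr3, with 3321 of the 24593 tested probes past the same threshold. SAM, the test named in the methods, called 1 member there, Npr3, with 1.17% of probes called. With both mutants set against the 4 controls, 1 member was called, Npr3, with a difference of 1.12 (SE 0.20, limma adjusted p = 0.0195) against 1.89% of probes called. That call was lost without the background filter (adjusted p = 0.0583 in limma) and without control replicate 3 (0.071) or 4 (0.059). It was also lost with replicate number as a block in the fit (limma adjusted p = 0.06). SAM called 2 members in this comparison, Nppa and Npr3, with 4.37% of probes called. Nppa differed by 1.87 in that comparison (SE 0.47, limma adjusted p = 0.0720). No overlap between groups was seen for 1 member in TrbE10, where 9.96% of probes did not overlap, for 2 in TrbE14 (9.32%) and for 1 with the mutants together (3.88%). These comparisons share their control hearts.

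Set against each other, the mutants were not separated by any member. In limma, 0 of 5 members and 0% of all tested probes were called between TrbE10 and TrbE14, no member passed an unadjusted p under 0.05, which 5.77% of probes did, and SAM called 0 members and 0% of probes. All 5 members overlapped between the mutants, against 3.12% of probes that did not overlap. Nppb had the largest difference, 0.72 higher in TrbE10 (95% interval 0.894 to 3.02-fold, limma adjusted p = 0.919). Nppa differed by 0.42 (95% interval 0.586 to 3.07-fold) and Npr3 by 0.24 (95% interval 0.830 to 1.69-fold), so the Nppa interval is the widest of the 3.

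**Figure D3:**
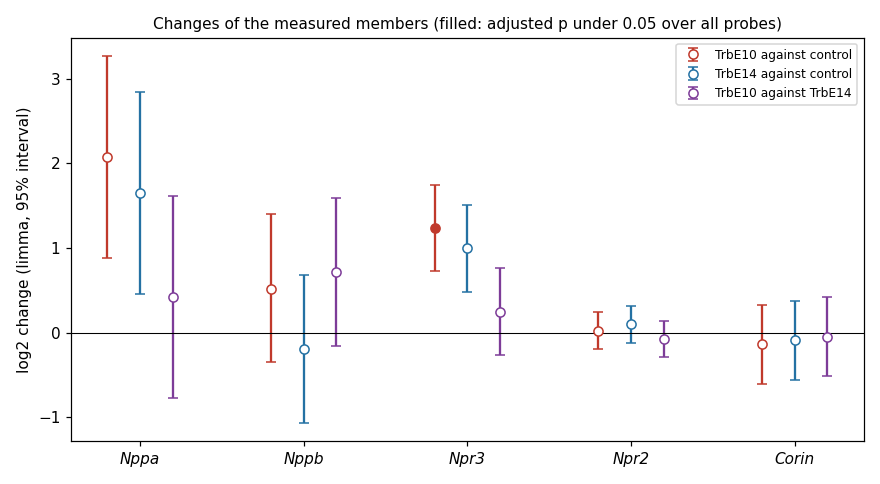
Log2 change (vertical axis) of each measured member with its 95% interval in limma, for each mutant against control and for the mutants against each other. The Npr3 change in TrbE10, 1.24, is the filled point, which passed the test, and the Nppa intervals are wide but lie above 0 in both mutants.

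Whether members varied together within groups was tested over pairs. Over the 10 pairs of the 5 measured members, with the group means removed and 12 hearts, no correlation passed after adjustment (exact permutation of hearts within groups, Benjamini-Hochberg). The strongest was between Npr3 and Corin (r = -0.71, exact permutation p = 0.055, adjusted 0.543; rho = -0.58, exact permutation p = 0.07, adjusted 0.70), and r was -0.36 without the 2 hearts farthest from the median of Npr3. For Nppa and Nppb r was 0.17 (exact permutation p = 0.66, adjusted 0.943), with rho 0.15 (exact permutation p = 0.677, adjusted 0.925).

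Because Nppa is an atrial transcript, the atrial muscle list was set beside it. All 8 atrial genes were measured. Bmp10, a secreted atrial factor, was not well above background on any of the 4 control arrays and entered the tests through the mutant groups, so its fold is a lower bound, taken against the lowest signals well above background on the control arrays. It was at least 4.19-fold higher in TrbE10 and at least 4.75-fold higher in TrbE14. Bmp10 was called in both mutants, but against control readings that were not well above background. Its p therefore does not measure these bounds and is not given. Sln, the small regulator of the calcium pump, rose by 3.80 in TrbE10 (limma adjusted p = 0.0176) and differed by 3.33 in TrbE14 (limma adjusted p = 0.0514). Dkk3 rose by 1.62 in TrbE10 (limma adjusted p = 0.0463) and Stard10 fell by 0.66 (limma adjusted p = 0.0473). The other 4 were not called in either mutant, and the defining atrial light chains had wide intervals around small differences. Myl7 differed by -0.12 in TrbE10 (95% interval 0.255 to 3.33-fold) and 0.00 in TrbE14 (0.277 to 3.61-fold). Myl4 differed by -0.08 (0.321 to 2.77-fold) and 0.09 (0.361 to 3.12-fold). Summed signals add unlogged values, so the brightest genes of a list weigh most. The summed atrial signal ran from 8570 to 40000 in control hearts, 20300 to 39900 in TrbE10 and 23000 to 40200 in TrbE14. By group mean, Sln was the brightest atrial gene in TrbE10 (14.10) and TrbE14 (13.62). In control hearts Sln averaged 10.30 and Myl4 was the brightest (12.94). The sums in the mutants therefore weigh Sln most and do not show a shift of the light chains.

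The light chains differed widely between hearts of every group, and low readings went with low Nppa in control and TrbE10 hearts but not in TrbE14. Myl7 read 8.68, 10.60, 12.14 and 9.63 in control hearts, 11.18, 8.10, 10.34 and 10.94 in TrbE10 hearts and 9.85, 11.53, 9.03 and 10.62 in TrbE14 hearts. Control hearts 1 and 4, with the lowest Myl7 of their group, also had the lowest Nppa, and TrbE10 heart 2 had the lowest of both in its group. TrbE14 heart 2, in contrast, had the highest Myl7 and the lowest Nppa of its group. With group means removed, Nppa and Myl7 gave r = 0.75 (exact permutation p = 0.0287, adjusted 0.144 over 10 pairs of a member and a light chain) and rho = 0.62 (exact permutation p = 0.0676, adjusted 0.295). Without TrbE10 heart 2 and control heart 1, r was 0.39, so the relation rests on them. This comparison and the following covariates were chosen after the values were seen. With Myl7 as a covariate, the Nppa difference was 2.14 in TrbE10 (limma adjusted p = 0.0267) and 1.65 in TrbE14 (limma adjusted p = 0.104), and with Myl4 it was 2.13 (limma adjusted p = 0.0264) and 1.60 (limma adjusted p = 0.115). The part of atrial muscle in the Nppa difference was not tested.

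Npr3 is carried by endocardium, fibroblasts and fat in many tissues, and these lists were set beside it. Of 8 endothelial and endocardial genes none was called, with a median change of 0.16 in TrbE10 and 0.17 in TrbE14, and the summed signal ran from 8610 to 9020 in control hearts, 8850 to 11000 in TrbE10 and 9260 to 11200 in TrbE14. Of 7 fibroblast genes 1 was called in each mutant, the proteoglycan Dcn (0.39 and 0.51), and the median change was 0.46 and 0.43. The fibroblast sums, with Dcn the brightest gene, were 71000 to 79400, 89600 to 107000 and 93500 to 111000. Of 6 adipocyte genes 5 were measured and none was called, with a median change of -1.35 in TrbE10 and -0.41 in TrbE14. Summed signals were 1100 to 2540 in control hearts, 94.8 to 1740 in TrbE10 and 758 to 1990 in TrbE14. TrbE10 heart 2 had the lowest reading of its group for all 5 genes, so it weighs heavily in the TrbE10 median. Its Adipoq read 3.91, against 6.49 to 7.12 in the other TrbE10 hearts, and its Cidec 2.58, against 6.29 to 6.83. Of 6 macrophage genes 2 were called in TrbE10, Csf1r (1.14) and Cd68 (0.60), and 1 in TrbE14, Csf1r (0.92). The median change was 0.56 and 0.23. The macrophage sums, with Csf1r the brightest gene, were 6710 to 8230, 13200 to 14900 and 11300 to 12400. The part of these cell types in the Npr3 change was not tested. Ventricular muscle had 0 of 7 genes called in either mutant, with summed signals of 1090000 to 1160000 in control hearts, 1160000 to 1230000 in TrbE10 and 1090000 to 1160000 in TrbE14. Myl3, the brightest of these genes, read 18.32 in every TrbE10 heart (SD 0). A rise in such bright probes may be missed, and whether they were saturated was not tested. Of the conduction genes, 4 were measured and none was called, and the defining Cntn2 and Hcn4 were not above background in enough arrays to be tested. None of 5 smooth muscle and 3 erythroid genes was called, and of 3 measured skeletal muscle genes Tnni2 fell by 1.38 in TrbE10.

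The genes around the peptides in their pathway were taken from lists fixed by name. For processing and breakdown of the peptides, 5 of 7 genes were measured and none was called in either mutant, with medians of -0.23 in TrbE10 and -0.14 in TrbE14. Mme, or neprilysin, which degrades natriuretic peptides, differed by -0.55 (limma adjusted p = 0.414) and -0.86 (limma adjusted p = 0.268). Pcsk6, the convertase that activates corin, differed by -0.53 in TrbE10 (limma adjusted p = 0.16), where no heart reached the lowest control, and by -0.44 in TrbE14 (limma adjusted p = 0.307).

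For cGMP, the second messenger made by the receptor cyclases, 13 of 15 genes of synthesis and effectors were measured and none was called, with medians of -0.07 and 0.07. Prkg1, the cGMP-dependent kinase, differed by 0.74 in TrbE14 (limma adjusted p = 0.0958) and 0.34 in TrbE10 (limma adjusted p = 0.361). Pde3b, a phosphodiesterase that cGMP inhibits, differed by 0.73 in TrbE10 (limma adjusted p = 0.18). Rgs2, a kinase target that damps G protein signals, differed by -0.66 in TrbE10 and -0.73 in TrbE14.

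Of 12 transcription factors listed for their relation to Nppa, all were measured. Nkx2-5 itself was lower in TrbE10 and the other 11 were not called there, and none of the 12 was called in TrbE14. Tbx20, a T-box factor, differed by 0.50 in TrbE10 (limma adjusted p = 0.121) and Hand2 by -0.71 in TrbE14 (limma adjusted p = 0.44). Clcn6, a chloride transporter gene that neighbours Nppa and Nppb on chromosome 4, differed by -0.27 in TrbE10 (limma adjusted p = 0.58) and -0.24 in TrbE14 (limma adjusted p = 0.63), with overlapping groups.

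**Figure D4:**
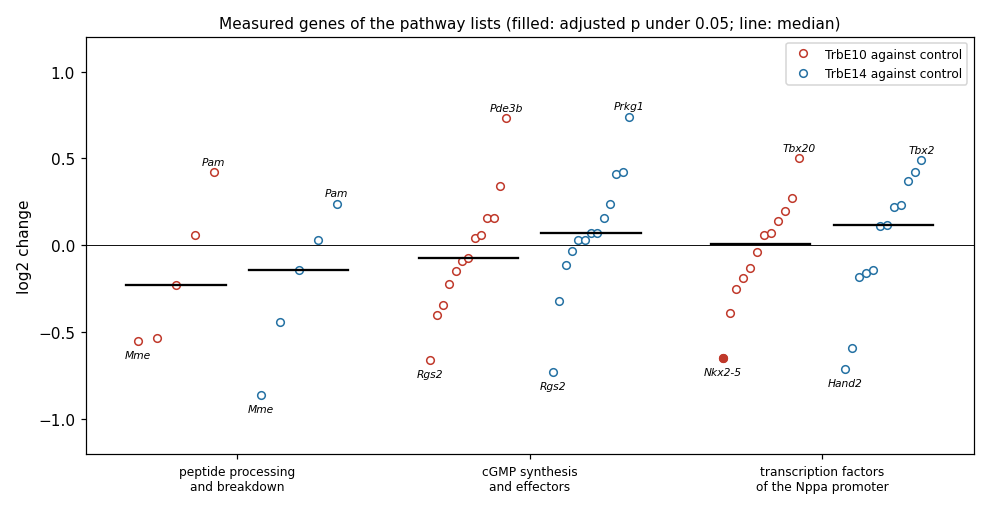
Log2 change against control (vertical axis) of each measured gene in 3 pathway lists, TrbE10 in red and TrbE14 in blue, with the median as a line and the extreme genes named. Nkx2-5 in TrbE10 (-0.65) is the filled point that passed the test, and the other genes lie between -0.86 and 0.74.

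The genes whose signals over the 12 hearts were most like each measured member were taken by Pearson r among 18014 gene names, as a description that mixes differences between and within groups. For Nppa they were Tmem176b (r = 0.969), Clec14a (0.945) and Tmem176a (0.940), and with group means removed r was 0.95, 0.86 and 0.88. Tmem176b differed by 0.75 in TrbE10 (limma adjusted p = 0.113), and Clec14a, an endothelial lectin, by 1.04 (limma adjusted p = 0.0568). For Npr3 they were Gm5144 (r = 0.942), Ccdc80 (0.934) and Cdk8 (0.932), and with group means removed r was 0.86, 0.72 and 0.79. Ccdc80, a secreted matrix protein, rose by 0.77 in TrbE10 (limma adjusted p = 0.0108), and Cdk8, the Mediator kinase, by 0.50 (limma adjusted p = 0.0428), both without overlap. The nearest named genes were Rab3b for Nppb (r = 0.884), Ahnak2 for Npr2 (r = 0.857) and Ciz1 for Corin (r = 0.916), none of which differed from control by more than 0.22.

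**Figure D5:**
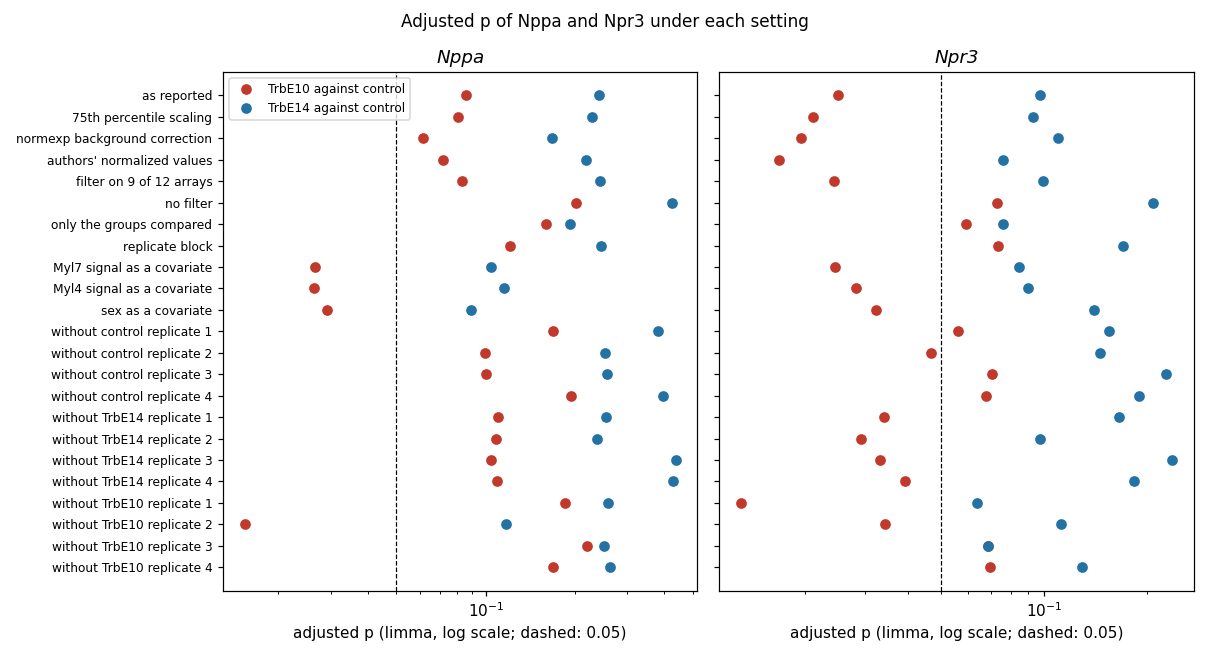
Adjusted p in limma (horizontal axes, log scale, with 0.05 dashed) of Nppa and Npr3 against control, under each way of processing the data or with 1 heart left out (rows). The TrbE10 points of Npr3 lie on both sides of 0.05, up to 0.0734, those of Nppa pass with sex or a light chain as a covariate or without TrbE10 replicate 2, and no TrbE14 point passes.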

How the data were processed

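Labelled cRNA of 12 hearts was hybridised to one-colour arrays, and the authors deposited scanner files whose intensity values were extracted with Agilent Feature Extraction 10.5, per the labels, plus a table of normalized log2 values, which the authors had quantile normalized and filtered and which was used as an alternative. The authors' methods name quantile normalization, a background filter and SAM. Here log2 processed signals, with outlier spots set aside and spots of a probe averaged, were quantile normalized, and probes well above background on 75% of a group's arrays were tested with limma 3.58.1 in R 4.3.3, with 1 mean per group, all 12 arrays in 1 fit and Benjamini-Hochberg adjustment over 24593 probes. The number of arrays limits the precision. Groups hold 4 mice each, per the labels. The scripts were tested on simulated data.

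The members and lists were chosen with earlier results of these data known. Named genes were all members, Nkx2-5, Gja5, list genes that were called or among the 2 with the largest change in a list, and the 3 genes most correlated with each measured member, with the brightest tested probe standing for a gene. A few marker genes that moved little (Myl7, Myl4) were named after their values were seen. Alternatives were another scaling, background correction, filter, test, covariates, a replicate block, and leaving out each array. Npr3 minus Npr1 was planned and not run because Npr1 was below background, and no member had another probe. Of 12 pairs of hearts with the same replicate number, 3 had deviations correlated over 0.1 (r -0.242 to 0.476). These were TrbE10 with TrbE14 hearts, replicates 1, 2 and 4 (r 0.374, 0.308 and 0.476). Hearts with different numbers were not compared, so whether the numbers pair the mutant hearts was not settled. Coordinates of probes are mm9, and promoters are GRCm38.p6, with no conversion between them. Results for a few listed genes are not reported here.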

Additional observations from a re-analysis of the deposited data

Results flagged for a closer look

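Among 109 groups of 4 hearts, 1 value stood apart from the other 3 in 7 groups, where chance gives about 1 in 20. TrbE14 replicate 2 read 12.02 for Nppb and 5.39 for Rab3b, below the others at 13.09 to 13.30 and 6.00 to 6.04. Control replicate 3 read 6.37 for Npr3, below the others at 6.87 to 6.97, 5.55 for the fibroblast gene Postn, below 6.65 to 6.77, and 12.43 for the macrophage gene Csf1r, above 12.15 to 12.19. Without that heart the Npr3 difference in TrbE10 was 1.10, with a limma adjusted p of 0.0705. Control replicate 4 read 11.45 for Npr2, above 11.30 to 11.31. TrbE10 replicate 2 read 11.67 for Nkx2-5, above the others at 11.21 to 11.27, and it is the TrbE10 heart with the lowest Nppa. The Npr1 probe, which entered no comparison, was well above background in TrbE14 replicate 4 alone, at 5.01.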

How the results depend on the processing

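Over 455 values of the 5 measured members under other settings, 421 kept their direction and their side of the threshold, 12 lost a call, 10 gained one and 12 changed sign. The Nppa and Npr3 differences kept their direction under every setting run, from 1.66 to 2.59 for Nppa and 0.89 to 1.43 for Npr3 in TrbE10. The count of called members, 1 in TrbE10 and 1 with the mutants together, became 0 in both without the background filter, and 0 in TrbE10 with only the groups compared in the fit (Npr3 adjusted p 0.0728, 0.0583 and 0.0591). It became 2 in both, with Nppa added, with sex, Myl7 or Myl4 as a covariate, the last 2 chosen after seeing the data. SAM, with 70 label orders for 2 groups and 100 drawn for the mutants together, gave 1 in TrbE14 and 2 with the mutants together, with 1.17% and 4.37% of probes called. With the replicate block the count was 0 in both (Npr3 adjusted p 0.0734 and 0.06). Leaving out 1 heart gave 0 to 2 in TrbE10 and with the mutants together, and 0 in TrbE14 and between the mutants. Over the same omissions the shift of Nppa minus Nppb was lowest at 0.95 and highest at 2.16 for TrbE10, and lowest at 1.24 and highest at 2.46 for TrbE14. The causes were not tested.

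The sign changes were those of Nppb, Npr2 and Corin, none of which was called. With 75th percentile scaling Npr2 was -0.05 in TrbE10 and 0.00 with the mutants together, and with sex as a covariate Corin was 0.07 in TrbE14 and 0.01 with the mutants together. With 1 heart left out, Npr2 ranged from -0.02 to 0.11 in TrbE10 and -0.12 to 0.01 between the mutants, Corin from -0.28 to 0.09 between the mutants, and Nppb from -0.52 to 0.11 in TrbE14 and -0.16 to 0.36 with the mutants together. Y-linked signal was present in 1 control, 2 TrbE10 and 3 TrbE14 hearts. Signal over background limits Npr1 and Nppc.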
